A study of Homo sapiens and Mus musculus with 13 samples.

Results

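The GATA, TAL1 and MITF mast lineage factors are 10 mouse transcription factors and cofactors, Gata1, Gata2, Gata3, Tal1, Lyl1, Lmo2, Ldb1, Mitf, Zfpm1 and Gfi1b, taken by gene symbol from the 37991 genes of the mouse files. All 10 symbols were found, each with a single Ensembl identifier. Their RNA was measured by RNA sequencing in a mouse haematopoietic progenitor line immortalized by HOXB8. The tested libraries are 3 single-cell clones with a CRISPR/Cas9 knock-in of NPM1c, the leukaemic nucleophosmin mutant, which the series design describes as fused to GFP. They are labelled clone 4, clone 12 and clone 18, and each is a line of its own. The 2 libraries set against them are replicates 1 and 2 of the parental line, labelled wild-type. Both groups carry the HOXB8 immortalization and were grown with stem cell factor, the ligand of KIT, and beta-estradiol, without a further treatment. Another 8 libraries of the series are from a human leukaemia line and were not used here.

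GATA2 acts in haematopoietic stem and progenitor cells and in mast cells, while GATA1 drives erythroid, megakaryocyte and mast cell maturation, and GATA3 is best known from T cells and type 2 innate lymphoid cells. TAL1 and its paralogue LYL1 are basic helix-loop-helix proteins that pair with E proteins, and LMO2 and LDB1 join such a pair to a GATA factor in one DNA-bound complex. MITF is a basic helix-loop-helix leucine zipper factor needed for mast cells, pigment cells and osteoclasts. Zfpm1 encodes FOG1, a partner of GATA1 and GATA2, and GFI1B is a transcriptional repressor that acts within the erythroid, megakaryocyte and mast cell lineages.

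The mouse values are normalized read counts, reads per gene divided by a size factor of each library, and correspond to 7358340, 12235174 and 9427149 reads in clones 4, 12 and 18 and to 9728260 and 99557475 in parental replicates 1 and 2. Npm1, the targeted gene, averaged 14530 ± 535 in the clones (SD, n = 3) and 25705 ± 13.7 in the parental libraries (SD, n = 2), and was lower in the clones (log2 fold change -0.82, SE 0.0673, adjusted p = 0.000533, limma). The value does not separate mutant from normal transcripts. Hoxb8 had 4101 to 6629 in the clones, against 6732 and 6080 in parental replicates 1 and 2 (adjusted p = 0.438, limma). The 8 progenitor markers, among them Kit, Cd34, Flt3 and Ptprc, all had reads in every library. Their summed values were 49415 to 58176 in the clones and 44297 to 48095 in the parental libraries. The list holds Hoxb8 and the factor Gata2 itself. Flt3 was lower in the clones (3812 against 5483 on average, adjusted p = 0.0117, limma). Ptprc (adjusted p = 0.0432) and Gata2 (adjusted p = 0.000838) were higher, and 5 did not pass. Among all tested genes, 7.51% were higher and 8.49% lower. Parental replicate 2 is the deepest library, and the parental libraries lay more than 1.5-fold apart in 12.9% of the 13132 tested genes. In bulk RNA, a change in the share of cells that express a gene and a change in RNA per cell cannot be told apart.

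By limma on log2 of the normalized read count + 1, with Benjamini-Hochberg adjustment over all genes with a mean of at least 10, 4 of the 8 tested factors were higher in the clones (Gata2, Tal1, Ldb1 and Gfi1b, adjusted p under 0.05). Over all tested genes, 7.51% were higher in the clones and 8.49% lower, 16.0% in all. The log2 fold change of all 8 was positive by limma, edgeR and DESeq2, so none was lower at an adjusted or unadjusted p under 0.05. The median log2 fold change of the 8 was 0.63, beside 0.01 over all tested genes. Every clone lay above both parental libraries in 6 of the 8, which was so in 24.5% of all tested genes, and every clone lay below both in none of the 8, against 25.8% of all tested genes. Gata1 and Gata3 stayed below the minimum for testing and are described from their reads.

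**Figure D1:**
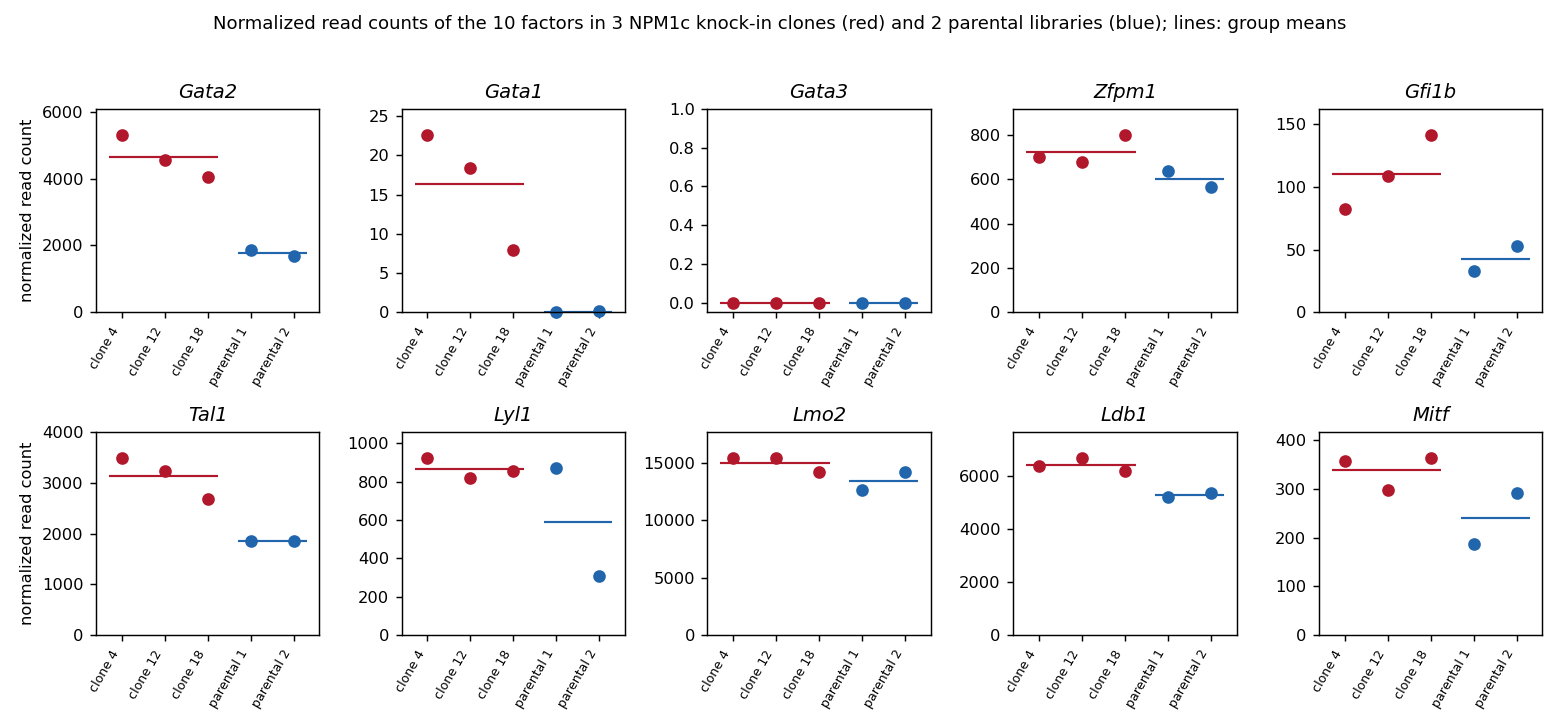
Normalized read count (y axis, from 0, a separate scale per panel) of each of the 10 factors in the 3 knock-in clones (red) and the 2 parental libraries (blue), with lines at group means. Gata2 lies between 4058 and 5293 in the clones, above 1868 and 1674 in the parental libraries, while the Lyl1 groups overlap and Gata3 has no read.

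Gata2 was the GATA gene with most reads. Its normalized read count was 5293, 4571 and 4058 in clones 4, 12 and 18, against 1868 and 1674 in parental replicates 1 and 2. The groups did not overlap, and the lowest clone was 2.17 times the highest parental library. Gata2 was 2.61-fold higher in the clones (log2 fold change 1.38, SE 0.126, adjusted p = 0.000838, limma), and a log2 fold change of at least this size was seen in 471 of the 13132 tested genes. It passed the test under all 15 alternative settings, with log2 fold changes of 1.28 to 1.48.

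Gata1 was scarce in every library, with 11, 15 and 5 reads in clones 4, 12 and 18, against no read in parental replicate 1 and 1 read in the deep parental replicate 2. As normalized read counts these are 22.6, 18.5 and 7.93 for the clones, against 0 and 0.153 for parental replicates 1 and 2, so all 3 clones lay above both parental libraries. Over the groups, the 31 clone reads and the single parental read gave a ratio of 116 (95% exact counting interval 19.3 to 4708), which covers counting error only. That ratio rests on the depth of parental replicate 2. Without it, 3 reads as the floor in parental replicate 1 gave Gata1 at least 3.44-fold higher in the clones. With no minimum on the mean, Gata1 passed (adjusted p = 0.0236, limma), in a fit that called 3.30% of 20236 genes higher, and it passed in edgeR on the recovered reads with that tool's own filter, a setting chosen after seeing the data (adjusted p = 0.00443). It did not pass without parental replicate 1 or 2, where it met the minimum of 10 through the clones (adjusted p = 0.0546 and 0.0635, limma).

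Per 1000 Gata2 reads of the same library, Gata1 had 4.26, 4.04 and 1.95 reads in clones 4, 12 and 18, against 0 and 0.0912 in parental replicates 1 and 2. The clones thus had more Gata1 reads relative to Gata2, and the normalized read count of each gene was higher in the clones. With 3 libraries against 2, an exact two-sided permutation test of this ratio gives p = 0.2, the smallest value the design allows.

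Gata3 had no read in any of the 5 libraries. The limit that 3 reads allow was 0.103 CPM (reads scaled to a common library total) over the clones and 0.0275 CPM over the parental libraries. The GATA genes Gata4, Gata5 and Gata6 likewise had no read in any library. Trps1, an atypical GATA repressor, was at 1214, 1226 and 962 in clones 4, 12 and 18, against 1125 and 1258 in parental replicates 1 and 2 (log2 fold change -0.08, adjusted p = 0.741, limma).

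The GATA partner Zfpm1 was at 699.6, 679.5 and 798.9 in clones 4, 12 and 18, against 637.0 and 567.6 in parental replicates 1 and 2. All clones lay above both parental libraries, but the difference did not pass (log2 fold change 0.27, SE 0.134, adjusted p = 0.219, limma). Per Gata2 read, Zfpm1 had 0.132, 0.149 and 0.197 reads in clones 4, 12 and 18, against 0.341 and 0.339 in the parental libraries. Every clone thus had fewer Zfpm1 reads per Gata2 read. Gata2, the denominator, was itself called higher in the clones, which lowers this ratio, and the ratio carries no test.

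Gfi1b was at 82.1, 108.3 and 141.1 in clones 4, 12 and 18, against 32.6 and 52.7 in parental replicates 1 and 2. Every clone lay above both parental libraries, although the clones themselves spread 1.72-fold. It was 2.56-fold higher in the clones (log2 fold change 1.36, SE 0.308, adjusted p = 0.0234, limma). The call was lost without clone 12 (adjusted p = 0.0822), without clone 18 (0.0629) and without parental replicate 1 (0.107), with log2 fold changes of 1.02 to 1.69 over all settings. The related repressor Gfi1 was at 5852 to 6074 in the clones, against 5325 and 5879 in parental replicates 1 and 2 (adjusted p = 0.502, limma).

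Tal1 had a normalized read count of 3492, 3241 and 2690 in clones 4, 12 and 18, against 1849 and 1860 in parental replicates 1 and 2. The parental libraries were nearly equal and the lowest clone was 1.45 times the higher of them. Tal1 was 1.68-fold higher in the clones (log2 fold change 0.75, SE 0.123, adjusted p = 0.00744, limma) and passed under all 15 alternatives (adjusted p up to 0.0455).

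Its paralogue Lyl1 was at 923.2, 817.4 and 856.0 in clones 4, 12 and 18, against 870.1 and 310.5 in parental replicates 1 and 2. The clones were close to each other and to parental replicate 1, while parental replicate 2 was 2.80 times lower than parental replicate 1. Only 2.98% of tested genes had parental libraries more than 2.5-fold apart. The difference did not pass (log2 fold change 0.73, SE 0.425, adjusted p = 0.303, limma). It rested on a single library: without parental replicate 1 Lyl1 was 1.47 higher on the log2 scale (adjusted p = 0.00222, limma), and without parental replicate 2 the log2 fold change was -0.01. Lyl1 had 0.264, 0.252 and 0.318 reads per Tal1 read in clones 4, 12 and 18, against 0.471 and 0.167 in the parental libraries, which lie on either side of the clones (exact permutation p = 1, two-sided, with 0.2 the smallest possible).

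The adaptors Lmo2 and Ldb1 changed little in size. Lmo2, the LIM-only bridging protein, was at 15394, 15376 and 14160 in clones 4, 12 and 18, against 12653 and 14172 in parental replicates 1 and 2, and clone 18 lay just below parental replicate 2. It did not pass (log2 fold change 0.16, SE 0.0817, adjusted p = 0.226, limma), nor under any alternative. Ldb1, which dimerizes to hold complexes together, was at 6386, 6690 and 6218 in clones 4, 12 and 18, against 5205 and 5386 in the parental libraries. The groups did not overlap, and Ldb1 was 1.21-fold higher in the clones (log2 fold change 0.28, SE 0.0778, adjusted p = 0.0480, limma). That call is at the threshold and was lost whichever library was left out (adjusted p = 0.0564 to 0.171).

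**Figure D2:**
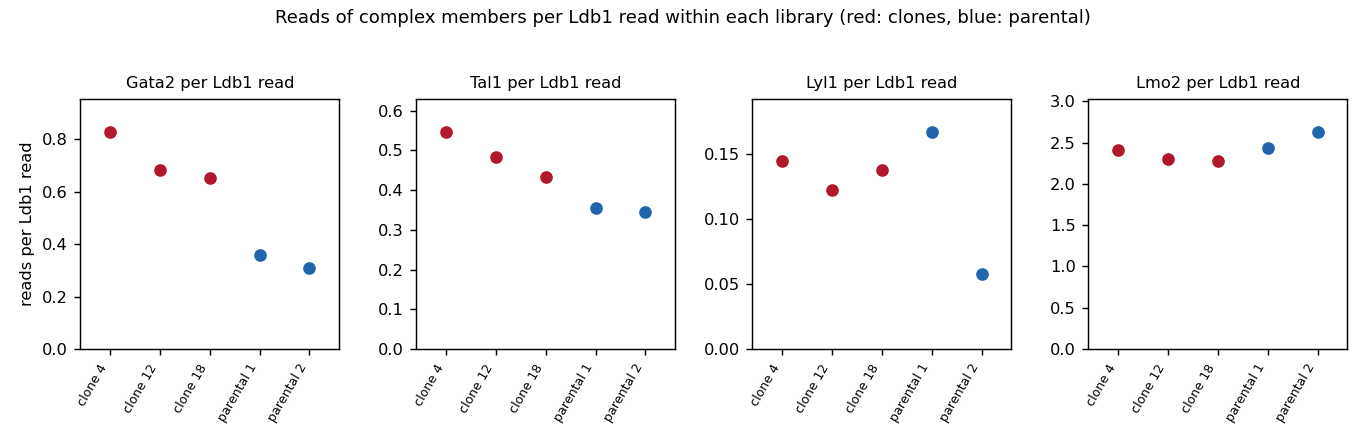
Reads of Gata2, Tal1, Lyl1 and Lmo2 per Ldb1 read (y axis, from 0) within each knock-in clone (red) and parental library (blue), a quantity that a library's scaling does not move. Gata2 lies at 0.653 to 0.829 in the clones, above 0.359 and 0.311 in the parental libraries, whereas Lmo2 lies at 2.28 to 2.41 in the clones, below 2.43 and 2.63 in the parental libraries.

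Set against Ldb1 within the same library, which removes any effect of scaling, the groups lay apart by different amounts, and these ratios carry no test. Gata2 had 0.829, 0.683 and 0.653 reads per Ldb1 read in clones 4, 12 and 18, against 0.359 and 0.311 in parental replicates 1 and 2. Tal1 had 0.547, 0.485 and 0.433 in the clones, against 0.355 and 0.345 in the parental libraries, again with no overlap. Lmo2 had 2.41, 2.30 and 2.28 reads per Ldb1 read in the clones, against 2.43 and 2.63 in the parental libraries. Every clone thus lay below both parental libraries, with clone 4 close to parental replicate 1. Ldb1, the denominator, was itself called higher in the clones, which lowers each of these ratios. Gata2 reads per Tal1 read were 1.52, 1.41 and 1.51 in the clones and 1.01 and 0.900 in the parental libraries. Transcript lengths differ between these genes, so the ratios compare libraries and not the amounts of the factors.

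Mitf was at 357.0, 296.7 and 363.0 in clones 4, 12 and 18, against 186.4 and 292.2 in parental replicates 1 and 2. Every clone was above both parental libraries, but clone 12 exceeded parental replicate 2 by a factor of 1.02, and the parental libraries were 1.57-fold apart. The difference did not pass (log2 fold change 0.53, SE 0.219, adjusted p = 0.146, limma). It passed without parental replicate 2 (log2 fold change 0.85, adjusted p = 0.0479, limma), and without parental replicate 1 the log2 fold change was 0.21. The value sums all Mitf transcripts, so the mast cell isoform is not separated from those of other promoters.

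The relatives of Mitf in the MiT/TFE family did not move together. Tfec (Tcfec in the files), known from macrophages and osteoclasts, fell to 4.10, 0 and 3.17 in clones 4, 12 and 18, against 209.7 and 148.1 in parental replicates 1 and 2. From 4 reads in the clones and 1105 in the parental libraries it was 74.1 times lower (95% exact counting interval 28.9 to 273, adjusted p = 0.00257, limma), with 42.9 to 111 times over the omissions of a single library, the smallest without clone 12. Tfec met the minimum of 10 through the parental libraries alone. Tfe3 (Tcfe3), a ubiquitous relative, was at 2060, 2068 and 2522 in the clones and 1492 and 2058 in the parental libraries (adjusted p = 0.208, limma). Tfeb (Tcfeb), the lysosomal regulator, was at 100.5, 219.1 and 291.7 in the clones and 270.3 and 273.6 in the parental libraries (adjusted p = 0.439, limma).

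**Figure D3:**
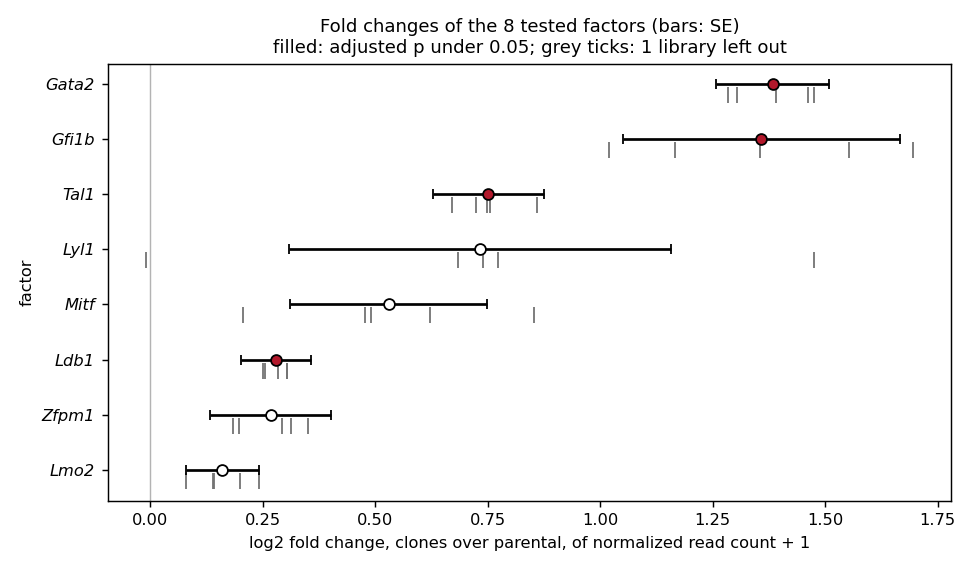
Log2 fold change of the normalized read count + 1, knock-in clones over parental libraries (x axis), of the 8 tested factors, with SE bars. Filled points passed at an adjusted p under 0.05 and grey ticks give the value with 1 library left out. Gata2 (1.38) and Tal1 (0.75) keep close ticks, whereas the Lyl1 ticks run from -0.01 to 1.47.

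Across the factors, Gata2 and Tal1 were called higher in each of the 5 fits that left out a library. The number of factors called higher was 3 without clone 4, where 989 of 13144 tested genes were higher, and 2 without clone 12, where 468 of 13125 were. It was 3 without clone 18 (745 of 13134 tested genes higher), 3 without parental replicate 1 (1230 of 13145) and 4 without parental replicate 2 (590 of 13113). Gata1 was among those without clone 18, where it met the minimum through clones 4 and 12 alone, Lyl1 among those without parental replicate 1, and Mitf among those without parental replicate 2. Parental libraries more than 1.5-fold apart were found in 3 of the 8 tested factors (Lyl1, Mitf and Gfi1b). Their lower library was replicate 2 in Lyl1 and replicate 1 in Mitf and Gfi1b.

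**Figure D4:**
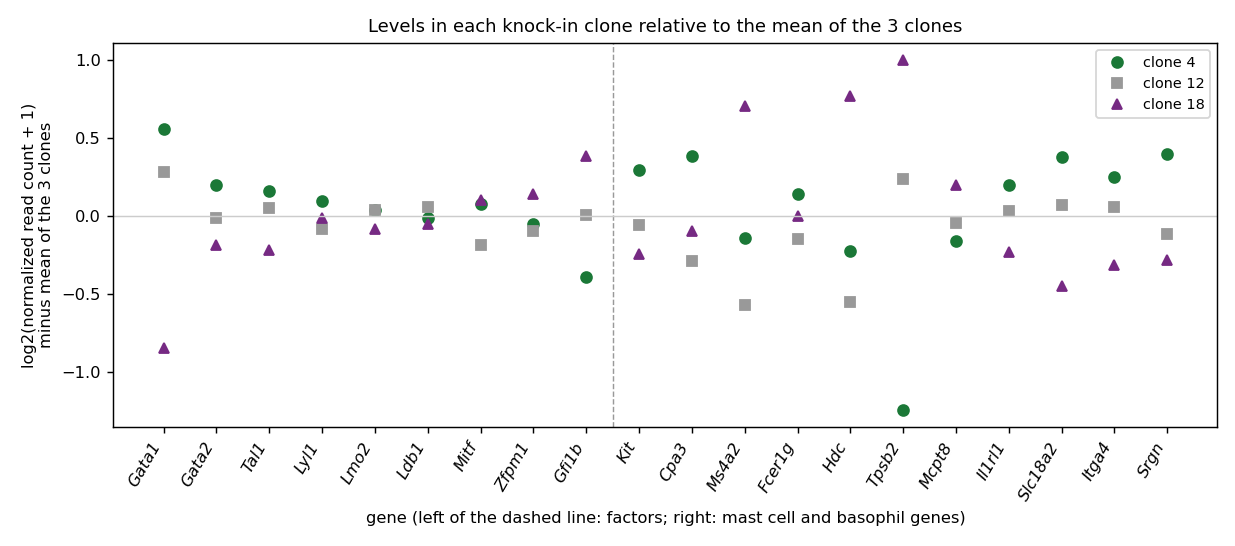
Log2(normalized read count + 1) in each knock-in clone minus the mean of the 3 clones (y axis), for Gata1 and the 8 tested factors (left of the dashed line) and the tested mast cell and basophil genes (right). Clone 18 (triangles) is lowest for Gata2 (-0.18) and Tal1 (-0.22) and highest for Gfi1b (0.38), Hdc (0.77) and Tpsb2 (1.00).

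The order of the clones was not the same for all factors. Clone 18 was the lowest clone for Gata1, Gata2, Tal1, Lmo2 and Ldb1 and the highest for Mitf, Zfpm1 and Gfi1b. Clone 4 was the highest for Gata1, Gata2, Tal1, Lyl1 and Lmo2. Some of these ranks were near ties. Lmo2 was at 15394 in clone 4 and 15376 in clone 12, and Mitf at 363.0 in clone 18 and 357.0 in clone 4. The Gata1 order rests on 11, 15 and 5 reads in clones 4, 12 and 18. Relative to their mean, the clones had a coefficient of variation of 13.4% for Gata2, 13.1% for Tal1 and 26.8% for Gfi1b, where counting alone gives 1.83%, 2.22% and 11.9%. Between the 2 parental libraries, which share a line, it was 7.72% for Gata2, 0.409% for Tal1 and 33.2% for Gfi1b. For Lyl1 it was 6.18% among the clones and 67.0% between the parental libraries. With 1 library per clone, differences between clones and between libraries cannot be told apart. Mast cell and basophil genes split in the same clones: Ms4a2, Hdc, Tpsb2 and Mcpt8 were highest in clone 18, while Kit, Cpa3, Fcer1g, Il1rl1, Slc18a2, Itga4 and Srgn were highest in clone 4. With 3 clones this is a description without a test.

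Among the partners that complete the complex, the list of E proteins, LIM and SSBP adaptors and ID proteins had 2 of 9 tested genes higher, 2 lower and 5 not passing, with a median log2 fold change of -0.12, beside 7.51% higher and 8.49% lower among all tested genes. Id1, an inhibitor of E proteins, was 2.12-fold higher in the clones (108.2 ± 26.9 against 49.5 ± 2.57, adjusted p = 0.0237, limma). Lmo4, a LIM-only relative of Lmo2, was 1.29-fold higher (5515 ± 430 against 4270 ± 196, adjusted p = 0.0367). Ssbp2, which stabilizes LDB1, fell to 342.7 ± 77.5 in the clones, against 690.1 ± 31.2 in the parental libraries (adjusted p = 0.0136). The E protein gene Tcf4 fell to 1976 ± 165, against 2705 ± 147 (adjusted p = 0.0257). These are means ± SD of 3 clones and 2 parental libraries. The calls were not stable to the omission of a library. Id1 was lost without clone 12 or either parental replicate (adjusted p = 0.0740, 0.0674 and 0.113), Lmo4 without clone 4, clone 12 or either parental replicate (0.0534, 0.121, 0.144 and 0.0952), Ssbp2 without clone 12 or parental replicate 2 (0.0563 and 0.0649), and Tcf4 without clone 12, clone 18 or either parental replicate (0.0603, 0.0594, 0.0531 and 0.134). The E proteins Tcf3 and Tcf12 were at 7552 to 10256 and 1546 to 1744 in the clones, against 9507 and 10996 and 1808 and 1821 in the parental libraries, and did not pass (adjusted p = 0.487 and 0.464, limma).

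Of 12 tested corepressors and chromatin partners, 1 was higher, 2 were lower and 9 did not pass (median log2 fold change -0.14), beside 7.51% higher and 8.49% lower among all tested genes. Cbfa2t3, the ETO2 corepressor of TAL1 complexes, was at 2326, 1792 and 1714 in clones 4, 12 and 18, against 1002 and 1127 in parental replicates 1 and 2. The groups did not overlap, and it was 1.81-fold higher in the clones (log2 fold change 0.86, SE 0.149, adjusted p = 0.00962, limma). Brd3, a bromodomain protein that binds acetylated GATA1, fell to 4995 ± 272 in the clones, against 7117 ± 124 in the parental libraries (adjusted p = 0.00701, and 0.0541 without trend and robust moderation). Sin3a fell to 3997 ± 120, against 5073 ± 567 (adjusted p = 0.0493), a call lost without clone 4, 12 or 18 or parental replicate 2 (0.0719, 0.139, 0.0870 and 0.267) and under TMM or library-total scaling (0.0538 and 0.0542). Kdm1a, the LSD1 demethylase that GFI1B recruits, was at 1687 to 1883 in the clones, against 2144 and 2414 in the parental libraries, and did not pass (adjusted p = 0.0572, limma).

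Factors that bind beside GATA and TAL1 in progenitors gave 1 higher, 1 lower and 9 not passing of 11 tested (median log2 fold change 0.26), close to those shares of all tested genes. Myb was 1.27-fold higher in the clones (21700 ± 1956 against 17078 ± 913, adjusted p = 0.0412), and the ETS factor Erg fell to 3119 ± 463, against 4311 ± 69.2 (adjusted p = 0.0395, limma). Myb did not pass without clone 4, clone 12 or either parental replicate (adjusted p = 0.0543, 0.129, 0.0732 and 0.202), nor Erg without clone 12, clone 18 or either parental replicate (0.133, 0.103, 0.123 and 0.128). Spi1 (Sfpi1 in the files), which encodes PU.1 and opposes GATA factors, was at 849.3, 760.8 and 933.6 in the clones and 853.0 and 605.6 in the parental libraries (adjusted p = 0.393, limma).

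**Figure D5:**
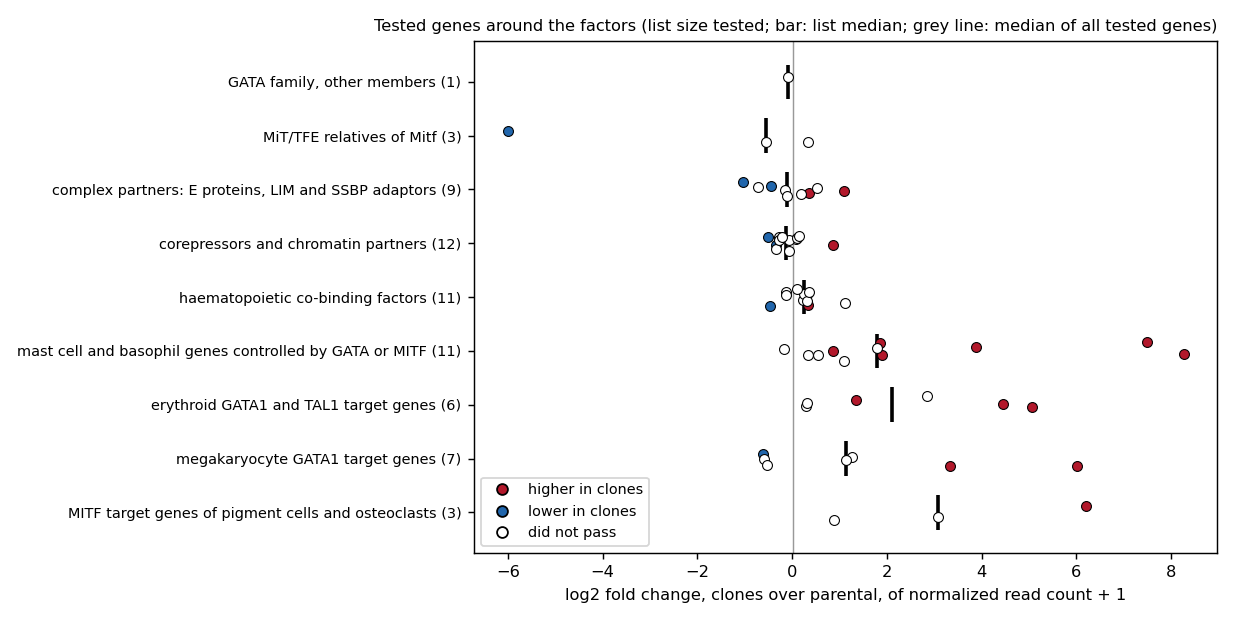
Log2 fold change of the normalized read count + 1, knock-in clones over parental libraries (x axis), of each tested gene of 9 lists (number tested in brackets), red where higher, blue where lower and open where it did not pass. Black bars are list medians and the grey line is the median of all tested genes, 0.01. The mast cell list runs up to 8.27 (Il1rl1), while partner and corepressor lists lie on both sides of 0.

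Of 20 mast cell and basophil genes that GATA factors or MITF are known to control, 11 were tested, and 6 were higher and 5 did not pass. Among all tested genes, 7.51% were higher and 8.49% lower. The median log2 fold change of the 11 was 1.79, and 2 of the 11 (Il1rl1 and Tpsb2) met the minimum through the clones alone. This median is the value of Cpa3, which did not pass (SE 0.824, adjusted p = 0.225, limma). Cpa3 was at 4388, 2748 and 3139 in clones 4, 12 and 18, against 2450 and 386.2 in parental replicates 1 and 2. Its parental libraries lay 6.34-fold apart. Il1rl1, the interleukin-33 receptor, was at 592.9, 529.4 and 440.7 in clones 4, 12 and 18, against 0 and 1.83 in the parental libraries (adjusted p = 0.000112, limma). The ratio over the groups was 310 (95% exact counting interval 176 to 601), or at least 111 without the deep parental replicate 2. Slc18a2, the vesicular amine transporter that loads histamine into granules, was at 5006, 4040 and 2826 in the clones, against 1060 and 1072 (log2 fold change 1.85, SE 0.228, adjusted p = 0.00462). Ms4a2, the beta chain of the IgE receptor, was at 324.1, 241.3 and 584.9, against 17.1 and 31.3 in the parental libraries (adjusted p = 0.00252, limma). Tpsb2, a tryptase, was at 75.9, 213.0 and 361.4 in clones 4, 12 and 18, against 0 in both parental libraries (adjusted p = 0.000791, limma). With 3 reads over the parental group as the floor, Tpsb2 was higher by a factor of at least 544, or at least 48.7 without parental replicate 2, and its reads can be shared with Tpsab1. Kit, the stem cell factor receptor, was at 8571, 6720 and 5887 in the clones, against 5736 and 5263, and did not pass (adjusted p = 0.183, limma). When a library was left out, 5 to 7 genes were called, and the median was lowest, 1.03, without parental replicate 2. The untested genes included Tph1, Il13 and Gzma with no read in any library.

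Of 20 erythroid genes of GATA1 and TAL1, 14 were below the minimum for testing and 7 of these had no read in any library, among them both alpha globins, and Klf1, the erythroid master factor, stayed at 1.55 to 6.34 in all 5 libraries. The shares over all tested genes were 7.51% higher and 8.49% lower. Of 6 tested genes of this list 3 were higher, 1 of them Gfi1b itself, and 3 did not pass. Among the 6, 3 were over the minimum through the clones alone. The median log2 fold change depended on the minimum: it was 2.10 over these 6, 0.35 over 13 genes with no minimum and 0.32 over 3 genes at a minimum of 50. The haem synthesis genes Urod and Fech were at 889 to 1075 and 355 to 385 in the clones, against 727 to 799 and 295 to 308 in the parental libraries, and did not pass (adjusted p = 0.149 and 0.202, limma). The other 2 called genes were the adult beta globins, which met the minimum through the clones alone and whose near-identical copies can share reads. Hbb-b1 was at 51.3, 61.5 and 25.4 in clones 4, 12 and 18, against 0 and 0.763 in the parental libraries, a ratio of 67.8 over the groups (95% exact counting interval 28.0 to 214), or at least 10.1-fold without parental replicate 2 (adjusted p = 0.00221, limma). Hbb-b2 was at 24.6, 35.7 and 19.0, against 0 and 0.458 (ratio 65.8, interval 21.3 to 329, and at least 5.89-fold without parental replicate 2).

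Among megakaryocyte genes of GATA1, 2 of 7 tested were higher, 1 was lower and 4 did not pass (median log2 fold change 1.13, or 0.54 over 12 genes with no minimum, with Rab27b over the minimum through the clones alone). Higher and lower genes made up 7.51% and 8.49% of all tested genes. Itga2b, the integrin alpha chain CD41, which also marks early mast cells and progenitors, was at 2675, 2024 and 1783 in clones 4, 12 and 18, against 195.8 and 222.7 in parental replicates 1 and 2. It was 10.2-fold higher in the clones (log2 fold change 3.34, SE 0.181, adjusted p = 0.000112, limma). Rab27b, a granule secretion GTPase also known from mast cells, was at 205.1, 68.9 and 60.2, against 0 and 1.22 (adjusted p = 0.00142), a ratio of 90.4 that was 58.6 without clone 4 and at least 21.6 without parental replicate 2. Itgb3, the beta chain that pairs with CD41 on platelets, fell to 1327 ± 119, against 2023 ± 102 (adjusted p = 0.0116, limma, and 0.0514 without trend and robust moderation). Gp6, Selp and Tubb1 had no read in any library.

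Of 12 MITF targets of pigment cells and osteoclasts, 3 were tested, 1 was higher and 2 did not pass. The shares over all tested genes were 7.51% higher and 8.49% lower. In the list, 2 of the 3 (Acp5 and Gpnmb) met the minimum through the clones alone. The median log2 fold change was 3.07 over these 3 and 0.51 over 7 genes with no minimum. Acp5, the tartrate-resistant acid phosphatase of osteoclasts, was at 215.4, 103.4 and 152.2 in clones 4, 12 and 18, against 0 and 3.21 in the parental libraries (adjusted p = 0.00154, limma), a ratio of 50.6 over the groups and at least 31.7 without parental replicate 2. Gpnmb, a glycoprotein of pigment cells and macrophages, was at 592.9 in clone 4 and had no read in the other 4 libraries, and Cd36, in the erythroid list, was at 141.6 in clone 4 and below 2 elsewhere. These 2 were singled out after their values were seen. The pigment cell genes Tyrp1, Dct and Trpm1 had no read in any library.

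Marker sums were higher in the clones for some cell types and lower or overlapping for others. The part of these cell types in the results was not tested. For comparison, every clone lay above both parental libraries in 24.5% of all tested genes and below both in 25.8%. Basophil markers, 4 of 6 of them with every clone above both parental libraries, summed to 2834 to 3455 in the clones and 217.7 to 312.3 in the parental libraries, with Il13 and Itga2 at 0. Mast cell markers, with 5 of 10 above, summed to 11025 to 14734 in the clones and 6402 to 8988 in the parental libraries. Kit, Cpa3 and Hdc made up most of each sum and did not pass (adjusted p = 0.183, 0.225 and 0.139, limma). Of 5 tested mast cell markers, 2 (Ms4a2 and Tpsb2) were called higher. Fcer1a, Cma1, Mcpt4 and Tpsab1 had at most 12 reads in any library and were not tested, and Mrgprb2 was at 0. Megakaryocyte markers summed to 2061 to 3192 and 395.1 to 452.1, with Gp6 and Tubb1 at 0. Itga2b made up most of the clone sums. In parental replicates 1 and 2 it was at 195.8 and 222.7, beside Pf4 at 167.8 and 75.6. Of 7 eosinophil markers 2 had every clone above both parental libraries, Il5ra with 73.9 to 80.8 in the clones against 1.55 and 3.97 (adjusted p = 0.000819, limma) and Prg3 with 25.4 to 26.7 against 1.55 and 1.37 (adjusted p = 0.00500). Their sum was 620.5 to 880.1 in the clones and 399.3 to 565.3 in the parental libraries, mostly Siglec5, which did not pass, with Ear1 at 0. Both Il5ra and Prg3 met the minimum through the clones alone. Erythroid markers summed to 44.4 to 97.3 and 0 to 5.04, with 5 of 8 at 0. The clone sums came from Hbb-b1 and Hbb-b2 alone. Alas2 went the other way, with 25 reads (3.82) in parental replicate 2 and no read in any clone. Of 8 neutrophil and monocyte progenitor markers, 5 lay below both parental libraries in every clone, 2 of them (Elane and Prtn3) passed as lower (adjusted p = 0.0240 and 0.0328, limma) and the other 3 markers overlapped. Their sum was 13495 to 28196 in the clones and 48093 to 55131 in the parental libraries, most of it Mpo, which did not pass (adjusted p = 0.0629). T cell and innate lymphoid markers summed to 450.2 to 535.4 and 334.9 to 478.5, mostly Thy1, with Cd3e and Cd3g at 0 beside the absent Gata3. B cell markers summed to 735.5 to 1013 in the clones and 1400 to 1465 in the parental libraries, mostly Ebf1, with Ms4a1 at 0. Of 4 tested B cell identifiers 2 were called lower. These were the main Ebf1 identifier (adjusted p = 0.0240, limma) and Cd79b (adjusted p = 0.00208). Cd79b was at 0, 1.23 and 1.59 in clones 4, 12 and 18, against 80.8 and 90.2 in parental replicates 1 and 2. It met the minimum of 10 through the parental libraries alone. Stromal and endothelial markers summed to 7461 to 9160 and 3317 to 3511, almost all of it Pecam1, with Col3a1 and Cdh5 at 0.

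The genes whose profile over the 5 libraries was nearest to that of Gata2 were Bbc3, Spin4 and Cela1, with root mean square distances of 0.0647, 0.0711 and 0.0828 in centred log2 values. Bbc3, a pro-apoptotic BCL2 family gene, was at 361.1, 297.9 and 253.6 in clones 4, 12 and 18, against 125.8 and 119.1 in parental replicates 1 and 2. Nearest to Mitf were E130317F20Rik, Atp10d and Gm9958, with distances of 0.0302, 0.0671 and 0.0676, and none of these 3 passed the test. These distances describe 5 libraries and carry no test.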

How the data were processed

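Per the labels' protocols, RNeasy micro kits gave the RNA and NEBNext Ultra II the mouse libraries. STAR 2.6.1, RSEM, DESeq2, mm9 and hg19 appear in the submitters' processing notes with no role stated. The annotation release, and whether counting used strand, is not given in the sources used here, so antisense or overlapping transcripts may not be separated. The deposited signal per Ensembl gene is a read count that the authors divided by a size factor per library, per the file headers and the values: 100% of values above 0 were whole multiples of the library's smallest value (tolerance 0.01). Groups follow the sample titles. The files' column headers carry the same 3 clone numbers in another assignment, so clones are named by title. Separate cultures are not stated for the parental replicates, so p-values measure only the spread between these libraries, which may be technical.

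Genes with a mean of at least 10 (13132 of 37991) were tested with limma 3.58.1 in R 4.3.3 (trend, robust moderation) on log2(value + 1), a scale that understates changes of low genes. SDs are over libraries. Where a group had 25 reads or fewer, ratios use reads over summed size factors, with exact 95% intervals and a floor of 3 reads over the group. Alternatives were edgeR 4.0.16 and DESeq2 1.42.0 on the recovered reads, other scalings, pseudocounts and minimums, and leaving out each library. The planned Gata2 to Gata1 ratio was inverted, since a library had no Gata1 read. Tests were tried on simulated data. The factors and lists were chosen with earlier results of these data known. Named are the 10 factors, Npm1, Hoxb8, up to 4 called genes with the smallest p per list, and the 3 nearest profiles of Gata2 and Mitf. Chosen after their values were seen were further list genes given beside them. No mouse sequence was at hand, so none is shown.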

Additional observations from a re-analysis of the deposited data

How the results depend on the processing

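Gata2 and Tal1 kept their direction and passed under all 15 alternatives. The number of genes called over the whole table, 2101, was 1271 without trend and robust moderation, and 990 to 2115 when a library was left out, lowest without parental replicate 2 and without clone 12 (1023). Without parental replicate 1 the split was 1230 higher and 576 lower, against 986 and 1115 in all libraries. Gfi1b and Ldb1 did not pass without a minimum on the mean (adjusted p = 0.0692 and 0.0631, limma) or without trend and robust moderation (0.0597 and 0.167), and the cause was not tested. The log2 fold change of Lyl1 was -0.00937 without parental replicate 2, the lowest, and 1.47 without parental replicate 1, the highest. The log2 difference in Lyl1 reads per Tal1 read, -0.02, ran from -0.77 without parental replicate 2 to 0.73 without parental replicate 1, and was 0.02 and 0.05 without clone 4 or 12. Gata1 per 1000 Gata2 reads differed by 3.37, and by 2.95 to 4.11 without single libraries. Fits with 1 parental library assume that it varies like the clones. No paired analysis was possible because the clones and the parental libraries share no replicate number. The Gata1 fold rests on 31 clone reads and 1 parental read.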
